A study of Mus musculus with 8 samples.

Results

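Fatty acid oxidation and PPAR target genes are the enzymes that burn fatty acids in mitochondria and peroxisomes, the proteins that bring fatty acids to them, and genes switched on by peroxisome proliferator-activated receptors (PPARs). The list named 43 genes, and a gene was kept where a probe set of the deposited value table was annotated to its symbol alone, with the brightest such probe set standing for the gene. This held for 41 of the 18193 genes with a measured value. Acsl1 and Cpt1b had no such probe set and were not analysed here. Ehhadh and Ppargc1a were too dim for the fit, so 39 of the 12856 genes tested were members.

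The values are probe set intensities, on a log2 scale, for total RNA of whole lung from 8 FVB/N mouse pups, each on 1 Affymetrix array. Cases D04, D34, D48 and D52 were compared with controls D02, D40, D50 and D58, 4 pups a group. The line carries an inducible FGF18 transgene, in which the surfactant protein C promoter (SP-C), active in the distal lung epithelium, drives the activator rtTA, and rtTA switches on FGF18 through tet operator sites. The design text gives single and double transgenic pups, taken as pairs from 4 litters and picked for induction of the transgene, but the genotype field reads alike for all 8 and no label ties a pup to a litter. The sources used here give neither the inducing agent nor the age of the pups.

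The array medians ran from 7.02 to 7.09 log2 in cases and from 7.06 to 7.12 in controls. With 4 arrays a group the precision is limited by their number and by the spread between pups. Lung epithelium was present on all of them, with the type 2 cell marker Sftpc between 14.55 and 14.63 in cases and between 14.48 and 14.65 in controls. Of the 8 type 2 cell markers measured 5 read lower in cases, and Abca3, the lipid transporter of surfactant bodies, fell by 0.98 log2 with no overlap (limma adjusted p = 0.0108). Fgf18 read 10.82 in D04, 12.09 in D34, 9.82 in D48, with 7.66 for the library labelled Case D52, against 7.05 to 7.76 in controls. In Fgf18 the fourth case thus goes against its label, and results are also given without it. Its Abca3 value was 10.27, the lowest of the cases, against 11.335 to 11.565 in controls. Among the members it lay with the other cases in Vnn1, Eci1 and Fabp5, and within the controls in Cd36 and Acadm. By Xist and Y-linked genes, D04, D34 and control D02 were female and the other 5 pups male.

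As background, a fatty acid is first joined to coenzyme A, passes into mitochondria on carnitine, and is shortened in rounds of dehydrogenation, hydration, a second dehydrogenation and thiolysis. Peroxisomes start on very long and branched chains. PPAR-alpha and PPAR-delta, with retinoid X receptors, bind sites made of a repeated core spaced by 1 letter and raise many of these genes in liver, heart and muscle when fatty acids are plentiful. In the lung, lipid-filled fibroblasts and type 2 cells handle fatty acids for surfactant, and PPAR-gamma is the receptor known for the fibroblasts' lipid program.

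Promoter sequences are given first, for 3 members whose values are set side by side later. RefSeq promoters on GRCm38.p6, running from 250 bases before to 50 bases after the gene start, matched 34 of the 41 measured members, and the other 7 were Vnn1, Fabp5, Crat, Acaa2, Decr1, Angptl4 and Hsd17b4. The 34 promoters were searched on both strands for the PPAR site AGGTCANAGGTCA, which holds the 6-letter core AGGTCA at both ends, so that the searches overlap. Capitals mark the stretch of 13 letters closest to that site. Eci1 and Eci2, sister isomerases with unlike values in these lungs, and Cd36 are shown in full.
Eci1, chr17:24426433-24426732, plus strand: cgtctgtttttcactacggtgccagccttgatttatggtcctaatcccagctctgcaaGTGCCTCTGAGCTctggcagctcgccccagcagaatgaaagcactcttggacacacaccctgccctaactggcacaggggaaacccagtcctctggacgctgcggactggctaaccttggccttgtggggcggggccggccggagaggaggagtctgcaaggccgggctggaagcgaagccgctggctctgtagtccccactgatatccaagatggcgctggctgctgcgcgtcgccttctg
Eci2, chr13:34994095-34994394, minus strand: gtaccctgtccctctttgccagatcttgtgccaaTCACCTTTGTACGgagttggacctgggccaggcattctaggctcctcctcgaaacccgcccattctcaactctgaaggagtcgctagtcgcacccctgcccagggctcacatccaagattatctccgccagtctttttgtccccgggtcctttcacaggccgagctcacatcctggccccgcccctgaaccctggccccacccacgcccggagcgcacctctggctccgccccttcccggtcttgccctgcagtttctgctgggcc
Cd36, chr5:17835847-17836146, minus strand: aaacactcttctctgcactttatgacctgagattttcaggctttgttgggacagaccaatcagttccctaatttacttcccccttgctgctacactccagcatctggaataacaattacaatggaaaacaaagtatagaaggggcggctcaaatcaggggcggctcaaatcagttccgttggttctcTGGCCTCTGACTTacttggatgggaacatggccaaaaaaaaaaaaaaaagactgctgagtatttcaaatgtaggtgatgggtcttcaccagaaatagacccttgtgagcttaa

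No member promoter held the site exactly or with 1 letter off, whereas 0.0444% of all 27025 promoters held it exactly and 0.544% with at most 1 letter off. With at most 2 letters off it stood in 4 of 34 member promoters (11.8%), against 3.81% of all promoters. These 4 were Cd36, Etfa, Slc25a20 and Ucp3, and their stretches, read on the strand that matches, are given here to show how each compares with the site.
Cd36: AAGTCAGAGGCCA
Etfa: AGGGCAAAGGTAA
Slc25a20: AGGTGAAAGGTCG
Ucp3: AGGTTTCAGGTCA
The closest stretches of Eci1 and Eci2 were 4 letters off, and 79.6% of all promoters held one at least as close. The core AGGTCA alone stood in 5 of 34 member promoters (14.7%) and in 4335 of the 27025. Of the 4 genes with the closest stretches, Cd36 differed between the groups by 0.47 log2, Slc25a20 by 0.07, Ucp3 by 0.04 and Etfa by -0.02.

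The comparison asked whether lungs labelled as cases differed from control lungs in these genes. Of the 11 mitochondrial enzymes of the spiral, 9 differed by little (Acadm and Eci1 aside, by at most 0.10 log2 in size), and the members that stood apart were Eci1, higher in cases, Vnn1 and Fabp5, lower in cases, and Cd36, higher in 3 of 4 cases. None of 39 members passed the threshold, an adjusted p of 0.05 (limma, Benjamini-Hochberg over 12856 genes), and over all genes 0.00778% passed, which is 1 gene, Abca3. The smallest adjusted p among the members was 0.161, for Vnn1. At an unadjusted p under 0.05 there were 5 members, 2 higher and 3 lower (12.8%), against 6.29% of all genes, 2.08% higher and 4.22% lower. The groups did not overlap in 3 members (7.69%), 1 higher and 2 lower, against 3.96% of all genes, 1.38% higher and 2.57% lower. Over the other 7 pups, without the library labelled Case D52, 0 members passed (0.0467% of all genes) and 7 had no overlap (13.7% of all genes), now also Acadm, Crat, Cd36 and Fabp3. The median log2 difference, case minus control, was 0.01 over the members, with 20 above and 19 below 0, and -0.01 over all genes. With all arrays set to one median, the median over all genes became 0.04, with 8095 genes above and 4761 below 0, and the members split 29 above and 10 below. With array weights the members split 13 above and 26 below, with a median of -0.054. Over all genes 5640 then lay above and 7216 below 0, with a median of -0.014. Of the 39 members, 31 differed by less than 0.11 log2 in size (79.5%), and 67.7% of all genes did. Under 0.25 log2 the order was the other way, with 89.7% of members and 92.9% of all genes.

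**Figure D1:**
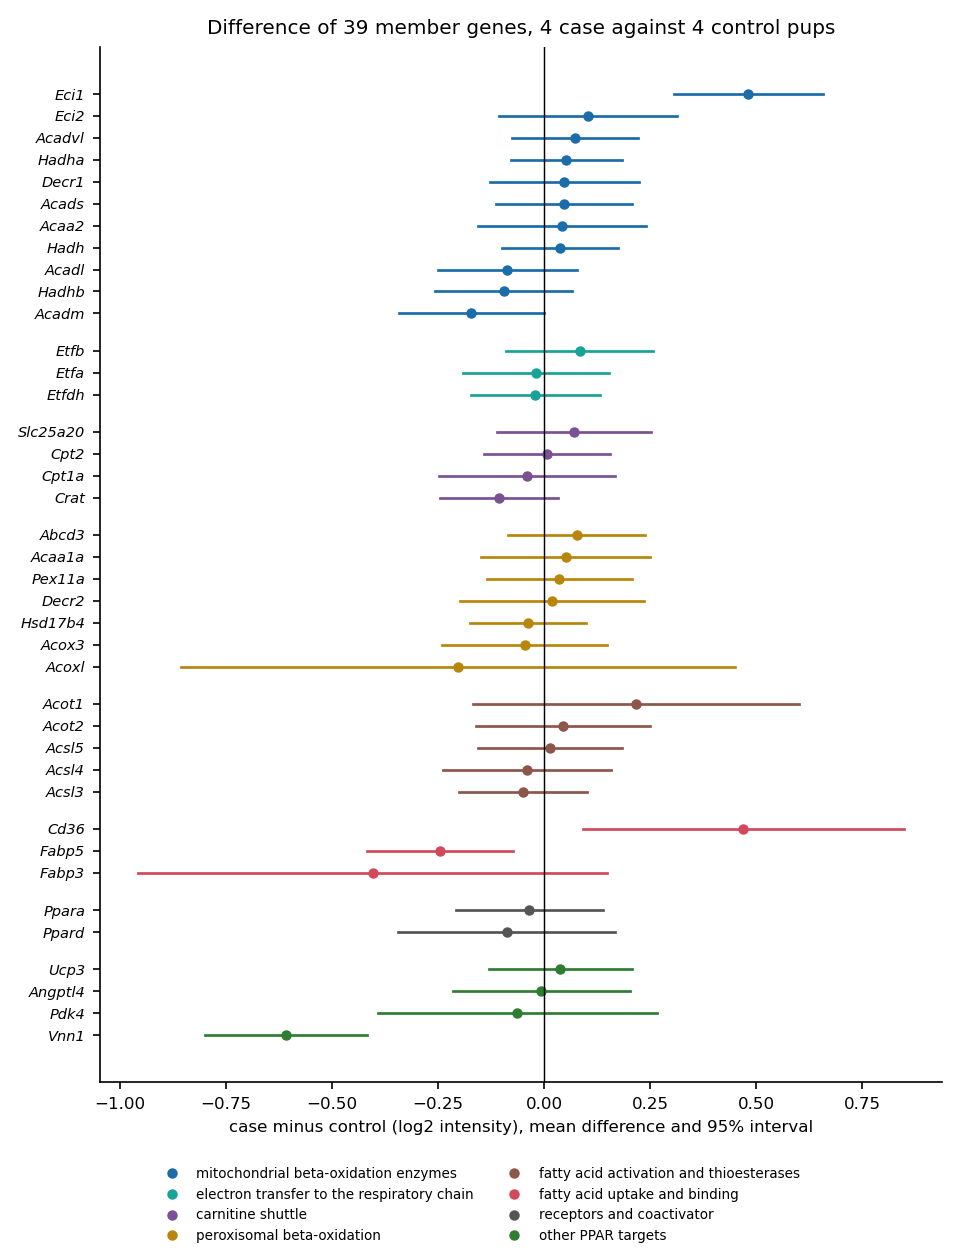
Difference of 39 member genes between 4 case and 4 control pups. The x axis is the mean log2 intensity in cases minus that in controls, points are the differences of the limma fit and lines their 95% intervals, with genes grouped and coloured by role. Eci1 lies at 0.48 and Vnn1 at -0.61, and most other points lie within 0.11 of 0.

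Among the 11 mitochondrial enzymes of the beta-oxidation spiral, 0 passed in either direction. Their median difference was 0.05 and their range -0.17 to 0.48, and Eci1 alone gave the upper end. Eci1, the enoyl-CoA delta isomerase that moves the double bond of unsaturated fatty acids into the place the spiral can use, had a log2 intensity of 9.82 in D04, 9.98 in D34, 9.98 in D48, with 9.76 for the library labelled Case D52, against 9.33 in control D02, 9.34 in D40, 9.40 in D50 and 9.54 in D58. All 4 cases lay above all 4 controls, by 0.22 log2 between the lowest case and the highest control. The mean was 9.89 ± 0.11 in cases and 9.40 ± 0.10 in controls (SD, n = 4 each), a difference of 0.48 (SE 0.08, 95% interval 0.30 to 0.66) or 1.4-fold, which missed the threshold (limma adjusted p = 0.377). The difference without the library labelled Case D52 was 0.52 (limma adjusted p = 0.0776). In males alone, a choice made after seeing the data, it was 0.44 (limma adjusted p = 0.999). These were D48 and the library labelled Case D52 against controls D40, D50 and D58.

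Eci2, the isomerase found in both mitochondria and peroxisomes, read 10.64 in D04, 10.95 in D34, 10.63 in D48, with 10.55 for the library labelled Case D52, against 10.49 in control D02, 10.71 in D40, 10.62 in D50 and 10.53 in D58. The groups overlapped, and D34 alone stood above every control, so that the difference of 0.10 (95% interval -0.11 to 0.31) missed the threshold (limma adjusted p = 0.787). Decr1, the dienoyl-CoA reductase that also serves unsaturated chains, differed by 0.05 (95% interval -0.13 to 0.22).

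The acyl-CoA dehydrogenases start the spiral, each for a chain length. Acadm, for medium chains, read 10.23 in D04, 10.13 in D34, 10.26 in D48, with 10.45 for the library labelled Case D52, against 10.39 in control D02, 10.40 in D40, 10.48 in D50 and 10.48 in D58. Cases D04, D34 and D48 lay below every control, and the library labelled Case D52 lay among the controls. The difference was -0.17 (95% interval -0.34 to -0.001, limma adjusted p = 0.736), and -0.23 without the library labelled Case D52 (limma adjusted p = 0.217). Acadl, for long chains, read 10.67, 10.66, 10.81 and 10.83 in D04, D34, D48 and the library labelled Case D52, against 10.69, 10.92, 10.82 and 10.87 in the 4 controls. These groups overlapped, with a difference of -0.09 (95% interval -0.25 to 0.08). Acadvl, for very long chains, read 10.003, 10.14, 10.07 and 10.11 in D04, D34, D48 and the library labelled Case D52, against 9.98, 9.90, 10.03 and 10.12 in the 4 controls. It differed by 0.07 (95% interval -0.08 to 0.22), and Acads, for short chains, by 0.05 (95% interval -0.11 to 0.21). The difference was below 0 for medium and long chains and above 0 for very long and short ones, and in none did it pass.

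Hadha and Hadhb encode the subunits of the trifunctional protein, which carries out the last 3 steps for long chains. Their RefSeq starts lie 273 bases apart on opposite strands of chromosome 5, so their promoter windows share 228 bases. Hadha read 10.31 in D04, 10.25 in D34, 10.29 in D48, with 10.33 for the library labelled Case D52, against 10.26 in control D02, 10.21 in D40, 10.19 in D50 and 10.32 in D58. The SD was 0.03 in cases and 0.06 in controls, and the difference was 0.05 (95% interval -0.08 to 0.18). Hadhb read 10.95, 10.97, 11.17 and 11.06 in D04, D34, D48 and the library labelled Case D52, against 11.10, 11.06, 11.12 and 11.24 in the 4 controls. The difference was -0.10 (95% interval -0.26 to 0.07) at this probe set, and 0.01 and 0.15 at the other Hadhb probe sets, so that they disagree in sign. Hadh, the dehydrogenase for shorter chains, differed by 0.04, with -0.05 at another probe set, and the thiolase Acaa2 by 0.04.

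**Figure D2:**
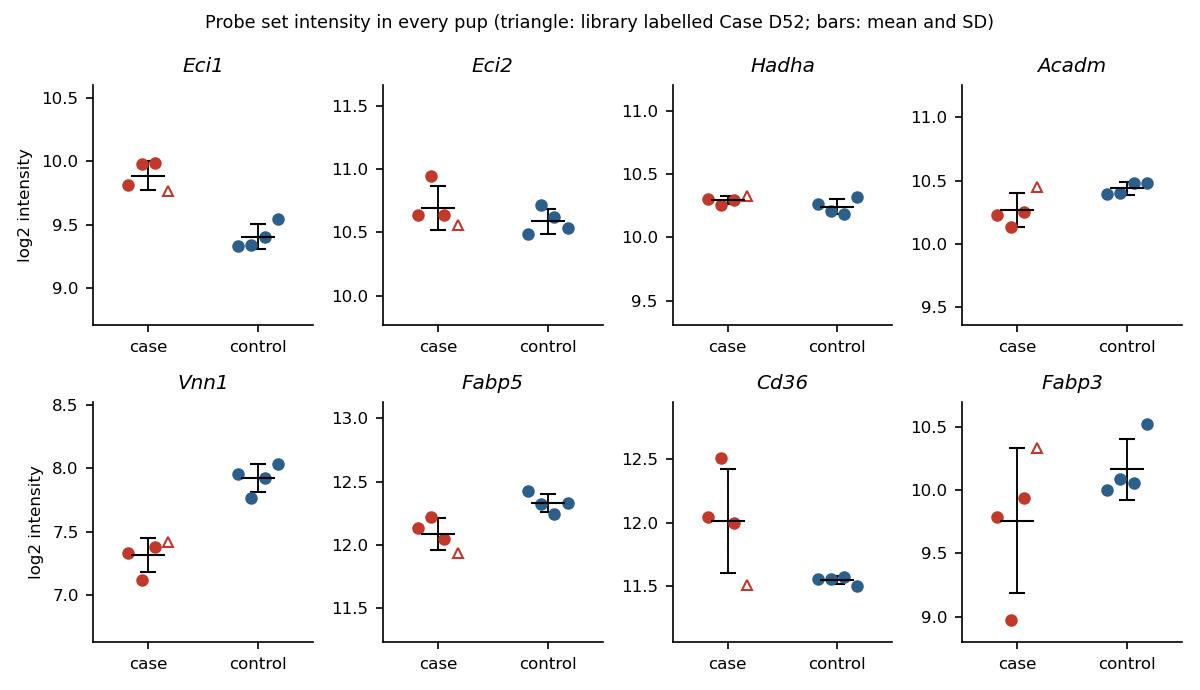
Probe set intensity of 8 members in every pup, on a log2 scale of equal span in each panel. Circles are pups, the open triangle is the library labelled Case D52, and bars show mean and SD of 4 pups a group. Eci1, Vnn1 and Fabp5 show no overlap, Hadha lies within 0.15 log2 over all pups, and Cd36 is high in 3 of 4 cases.

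The electron transfer flavoproteins pass electrons of the first step to the respiratory chain. Etfb differed by 0.08, Etfa by -0.02 and their oxidoreductase Etfdh by -0.02, and 0 of 3 passed. The lowest bound of their 95% intervals was -0.19 and the highest 0.26.

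Of the carnitine shuttle 4 of 5 members were measured and 0 passed. Cpt1a, the outer-membrane transferase that sets the rate of entry in most tissues, read 10.72 in D04, 10.91 in D34, 10.64 in D48, with 10.79 for the library labelled Case D52, against 10.77 in control D02, 11.03 in D40, 10.79 in D50 and 10.64 in D58. The controls spanned a wider range than the cases, and the difference was -0.04 (95% interval -0.25 to 0.17). The other Cpt1a probe sets differed by -0.11 and, at the dimmest, by -0.51, where it read 6.47, 6.27, 6.60 and 6.39 in D04, D34, D48 and the library labelled Case D52, against 6.84, 7.49, 6.77 and 6.68 in the 4 controls, with no overlap. Crat, which ties carnitine to acetyl groups, read 8.71, 8.77, 8.77 and 8.82 in D04, D34, D48 and the library labelled Case D52, against 8.82, 8.96, 8.80 and 8.92 in the 4 controls. All 4 cases lay below the control mean, though D52 lay above control D50, and the difference was -0.11 (95% interval -0.25 to 0.03, limma adjusted p = 0.736). The inner-membrane transferase Cpt2 differed by 0.01 and the carnitine carrier Slc25a20 by 0.07.

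Peroxisomal members likewise gave 0 of 7 past the threshold, with a median difference of 0.02. The peroxisomal fatty acid importer Abcd3 differed by 0.08, the thiolase Acaa1a by 0.05, Pex11a, which drives peroxisome division, by 0.04, the reductase Decr2 by 0.02, the multifunctional enzyme Hsd17b4 by -0.04 (0.08 at another probe set) and the branched-chain oxidase Acox3 by -0.05. Acaa1a has a close copy, Acaa1b, and probe sets annotated to both were left out, so its value is uncertain. Acoxl, an acyl-CoA oxidase-like gene, read 8.47 in D04, 9.23 in D34, 8.54 in D48, with 7.47 for the library labelled Case D52, against 8.64 in control D02, 8.78 in D40, 8.67 in D50 and 8.44 in D58. Its cases spanned 1.76 log2, with D34 above every control and the library labelled Case D52 below every control. The difference of -0.20 had a 95% interval of -0.86 to 0.45, and it was 0.11 without the library labelled Case D52. Ehhadh, the bifunctional enzyme of peroxisomes, was below the brightness limit of the fit (log2 6.51). It read 6.10 in D04, 6.33 in D34, 6.88 in D48, with 6.19 for the library labelled Case D52, against 5.996, 6.12, 6.24 and 6.24 in the 4 controls. Fitted with all dim genes, its difference was 0.23 (95% interval -0.11 to 0.57, limma adjusted p = 0.705). Ehhadh was lowest in control D02 and highest in D48. Liver markers (5 of 6 measured, 4 in the fit) had the same ends, with medians of -2.0 and 2.09 log2 from the control mean. Their median was 1.67 in the library labelled Case D52, -0.24 in D04, -0.07 in D34 and 0.38 to 1.11 in the other controls. The part of liver RNA in the Ehhadh values was not tested.

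Among fatty acid activation and thioester genes 0 of 5 passed. The long-chain acyl-CoA synthetases differed by 0.01 (Acsl5), -0.04 (Acsl4) and -0.05 (Acsl3), and the other Acsl4 probe sets by 0.13 and 0.17. Acot1, the cytosolic acyl-CoA thioesterase and a textbook PPAR-alpha target in mouse liver, read 10.23 in D04, 10.99 in D34, 10.23 in D48, with 10.09 for the library labelled Case D52, against 10.13 in control D02, 10.14 in D40, 10.29 in D50 and 10.12 in D58. Its difference of 0.22 (95% interval -0.17 to 0.60, limma adjusted p = 0.775) rested on D34 and was 0.01 without that pup. Acot2, its mitochondrial relative, differed by 0.04, and by 0.27 at a dimmer probe set, where D34 again read highest (8.53). Acot1 and Acot2 are near-identical copies, so how the probe sets divide their signal is uncertain.

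Of the 3 uptake and binding genes 0 passed, and 2 spanned over 1 log2 among the cases. Cd36, the fatty acid translocase of the cell surface, read 12.04 in D04, 12.51 in D34, 11.996 in D48, with 11.51 for the library labelled Case D52, against 11.56 in control D02, 11.56 in D40, 11.57 in D50 and 11.50 in D58. Cases D04, D34 and D48 lay above every control, by 0.43 log2 or more, while the library labelled Case D52 lay within the controls, whose whole range was 0.07. The mean was 12.02 ± 0.41 in cases and 11.55 ± 0.03 in controls (SD, n = 4 each), a difference of 0.47 (SE 0.17, 95% interval 0.09 to 0.85, limma adjusted p = 0.736). Over D04, D34 and D48 alone it was 0.64 (limma adjusted p = 0.101). In males alone the Cd36 difference was 0.21 (limma adjusted p = 0.999). At the other 2 Cd36 probe sets D04, D34 and D48 again lay above every control, with larger differences of 0.585 and 0.963. The dimmest read 9.53 in D04, 10.04 in D34, 9.30 in D48, with 8.47 for the library labelled Case D52, against 8.28 to 8.47 in controls.

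Fabp5, a fatty acid binding protein of epithelia and macrophages, read 12.14 in D04, 12.23 in D34, 12.05 in D48, with 11.94 for the library labelled Case D52, against 12.43 in control D02, 12.32 in D40, 12.25 in D50 and 12.33 in D58. All 4 cases lay below all 4 controls, though D34 and control D50 differed by only 0.02. The difference was -0.245 (SE 0.08, 95% interval -0.42 to -0.07, limma adjusted p = 0.736), and -0.25 at the second probe set, also with no overlap. Macrophage markers (8 of 8 measured, 7 in the fit) had a median difference of 0.01, and their summed intensity ranged from 10000 to 12622 in cases and from 11525 to 12604 in controls. Lyz2, which type 2 cells also make, gave most of that sum (7870 to 10700 in cases and 9820 to 10900 in controls), while Chil3, on the same list, differed by 1.05 log2 with all 4 cases above all 4 controls (limma adjusted p = 0.736). Epithelial markers read lower in cases, with a median difference of -0.65 over club cell markers (5 of 5 below 0), -0.45 over ciliated cell markers (4 of 4 in the fit below 0) and -0.21 over type 1 cell markers (6 of 6 below 0), and 0 of these 15 passed. Their summed intensity was 20612 to 48509 in cases and 43075 to 52103 in controls for club cells, 881 to 1996 in cases and 2061 to 2185 in controls for ciliated cells, and 17028 to 23848 in cases and 23878 to 24863 in controls for type 1 cells. Among cases the club cell median lay lowest in D34 (-1.5 log2 from the control mean) and highest in the library labelled Case D52 (-0.11). The ciliated (-0.80 and -0.14) and type 1 cell (-0.54 and -0.01) medians had the same ends. Fabp5 had the opposite ends, highest among cases in D34 and lowest in the library labelled Case D52. The part of these cell types in the Fabp5 difference was not tested. In bulk RNA, fewer cells of a type and less RNA per cell cannot be told apart.

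Fabp3, the fatty acid binding protein of heart and muscle, read 9.79 in D04, 8.97 in D34, 9.94 in D48, with 10.33 for the library labelled Case D52, against 9.998 in control D02, 10.08 in D40, 10.05 in D50 and 10.52 in D58. D34 was lowest by 0.81 log2, control D58 was highest, and the library labelled Case D52 came next. The difference was -0.41 (95% interval -0.96 to 0.15, limma adjusted p = 0.736) and -0.60 without the library labelled Case D52 (limma adjusted p = 0.322). In males alone the Fabp3 difference was -0.08 (limma adjusted p = 0.999). Heart and skeletal muscle markers (17 of 17 measured, 12 in the fit, 11 of the 12 below 0) had the same order at both ends. Their median lay -0.66, -1.64 and -0.44 log2 from the control mean in D04, D34 and D48, with 0.26 in the library labelled Case D52, against -0.18 to 0.34 in controls. Their summed intensity was 5784 to 25911 in cases and 19898 to 28234 in controls. Muscle myosin (Myh3, Myh8) was below the brightness limit on average, though it read 8.03 and 7.16 in control D58 and 6.42 and 6.13 in D50. The other pups read at most 4.71 for Myh3 and 4.80 for Myh8. The atrial light chain Myl7 read 9.49 to 12.10 in cases and 11.53 to 12.12 in controls. The part of muscle tissue in the Fabp3 values was not tested.

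**Figure D3:**
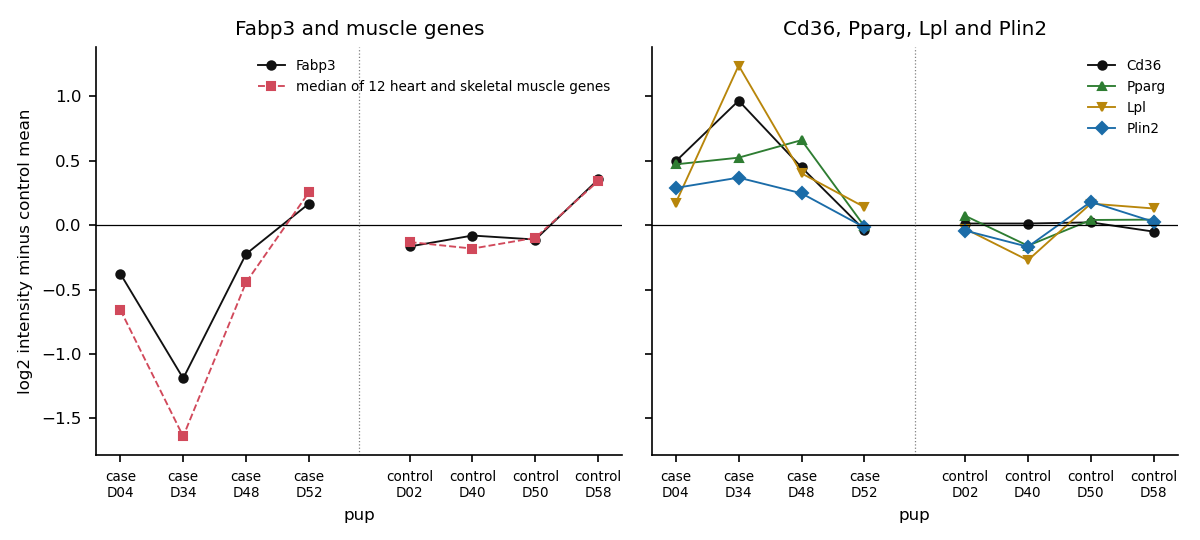
Values pup by pup, as log2 intensity minus the control mean, with cases left of the dotted line and controls right of it. On the left are Fabp3 (solid) and the median of 12 heart and skeletal muscle genes (dashed), which are both lowest in D34. On the right are Cd36, Pparg, Lpl and Plin2, with D04, D34 and D48 above 0 and the fourth case inside the range of the controls.

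Of the receptors and their coactivator 2 of 3 were in the fit, and 0 passed. Ppara, the PPAR of oxidative tissues, read 6.87 in D04, 6.95 in D34, 6.73 in D48, with 7.04 for the library labelled Case D52, against 6.87 in control D02, 6.90 in D40, 7.01 in D50 and 6.96 in D58. The groups overlapped, with a difference of -0.04 (95% interval -0.21 to 0.14). Ppard, the widely expressed PPAR-delta, read 7.33, 7.45, 7.60 and 7.28 in D04, D34, D48 and the library labelled Case D52, against 7.37, 7.82, 7.34 and 7.48 in the 4 controls. Control D40 was highest, and the difference was -0.09 (95% interval -0.34 to 0.17). Ppargc1a, the coactivator PGC-1 alpha, was below the brightness limit at all of its 5 probe sets. The brightest read 6.45, 6.09, 6.62 and 6.52 in D04, D34, D48 and the library labelled Case D52, against 6.53, 6.45, 6.63 and 6.76 in the 4 controls. It was lowest in D34, and the difference was -0.17 (95% interval -0.44 to 0.09, limma adjusted p = 0.705, fitted with all dim genes). Over the 5 probe sets the differences ran from -0.37 to -0.05.

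Of the remaining PPAR targets 0 of 4 passed. Vnn1, the pantetheinase vanin 1, which frees pantothenate, the precursor of coenzyme A, read 7.33 in D04, 7.12 in D34, 7.38 in D48, with 7.42 for the library labelled Case D52, against 7.96 in control D02, 7.77 in D40, 7.92 in D50 and 8.03 in D58. All 4 cases lay below all 4 controls, by 0.35 log2 between the highest case and the lowest control. The mean was 7.31 ± 0.13 in cases and 7.92 ± 0.11 in controls (SD, n = 4 each), a difference of -0.61 (SE 0.09, 95% interval -0.80 to -0.42) or 1.53-fold lower (limma adjusted p = 0.161). A second, dimmer probe set differed by -0.53 and read 5.999, 5.41, 5.89 and 5.80 in cases D04, D34, D48 and the library labelled Case D52, against 6.13 to 6.45 in controls, also with no overlap. The Vnn1 difference was present in the library labelled Case D52, whose Fgf18 was at the control level, and it was -0.64 without that library (limma adjusted p = 0.0676). In males alone it was -0.51 (limma adjusted p = 0.784).

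Pdk4, the kinase that shuts off pyruvate dehydrogenase when fatty acids are burnt, read 6.67 in D04, 7.23 in D34, 6.82 in D48, with 6.47 for the library labelled Case D52, against 6.67 in control D02, 7.02 in D40, 6.92 in D50 and 6.84 in D58. The cases enclosed the controls at both ends, and the difference was -0.06 (95% interval -0.39 to 0.27). Angptl4, the secreted inhibitor of lipoprotein lipase, read 10.28 in D04, 10.66 in D34, 10.59 in D48, with 10.36 for the library labelled Case D52, against 10.38 in control D02, 10.48 in D40, 10.59 in D50 and 10.46 in D58. The difference was -0.01 (95% interval -0.22 to 0.20). Ucp3, the mitochondrial carrier of muscle, differed by 0.04 at one probe set and by -0.17 at the other. Over the 39 members, D34 was the highest of the 8 pups in 12, among them Pdk4, Angptl4, Acot1 and Acoxl, and the lowest in 5. D48 was the highest in 8, and control D40 and the library labelled Case D52 were each the lowest in 9. The same count was not made over all genes.

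**Figure D4:**
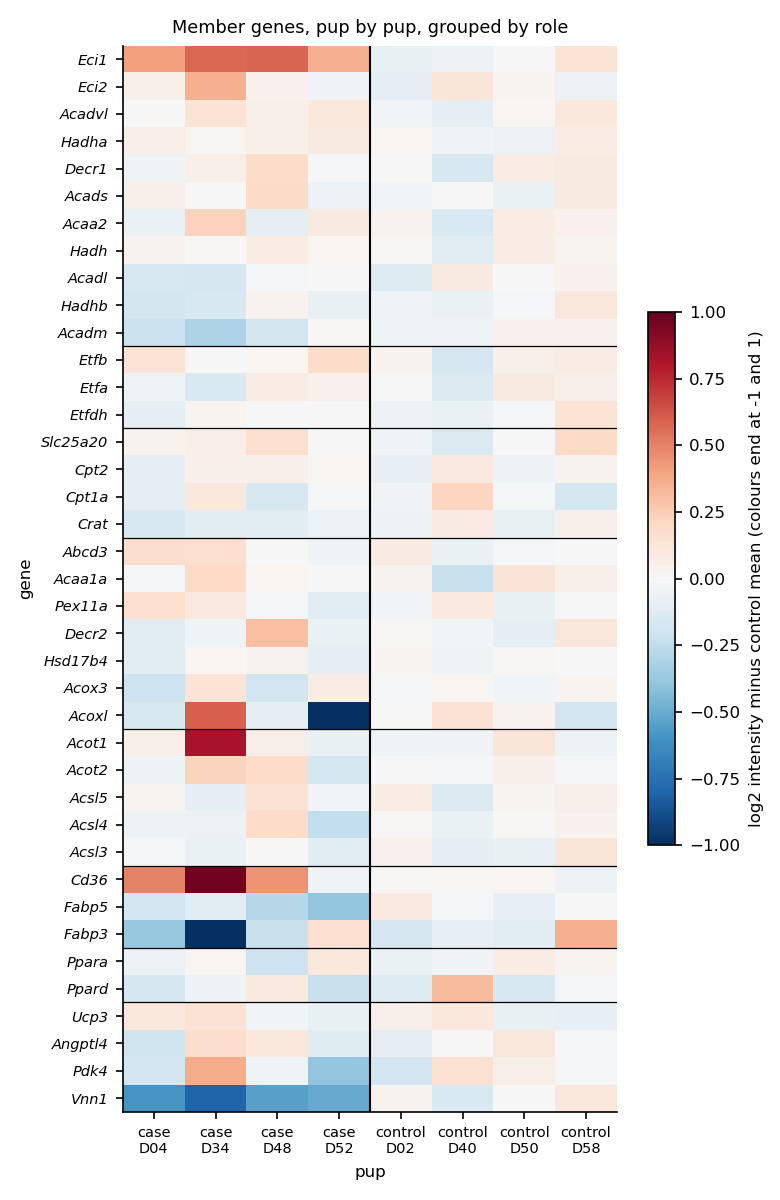
Every member in the fit, pup by pup. Colour is log2 intensity minus the control mean, red above and blue below, and horizontal lines separate the roles in the order used in the text. Eci1, Vnn1 and Fabp5 keep one colour across the 4 cases, and so do members with smaller differences, such as Crat and Hadha. Cd36, Fabp3, Acoxl and Acot1 take their colour from single pups or from 3 of 4 cases.

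Pup by pup, the median over the 39 members lay -0.05, 0.02, 0.04 and -0.03 log2 from the control mean in D04, D34, D48 and the library labelled Case D52, against -0.04 to 0.04 in controls. The median SD between pups was 0.11 in cases and 0.09 in controls over the members, and 0.13 and 0.10 over all genes. Of the 39 members, 24 had a 95% interval within 0.25 log2 of 0 on both sides. How many of all genes had such an interval was not counted.

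Other genes of the same pathways gave 0 of 91 past the threshold, out of 122 listed and 109 measured, with a median difference of -0.02. At an unadjusted p under 0.05 there were 6 higher and 3 lower, 9 of 91, against 6.29% of all genes, 2.08% higher and 4.22% lower. The mitochondrial acetyl-CoA synthetase Acss1 read 8.90, 8.73, 8.76 and 9.17 in D04, D34, D48 and the library labelled Case D52, against 9.23, 9.31, 9.21 and 9.21 in the 4 controls, with no overlap and a difference of -0.35. The dehydrogenase of short branched chains, Acadsb, differed by 0.45, the lipase inhibitor G0s2 by 0.38, the retinol saturase Retsat by 0.25 with no overlap, the thioesterase Acot7 by 0.19 and the orphan receptor Esrrb by 0.20 (limma adjusted p = 0.736 for these 6). The other 3 were the peroxisomal transporter Abcd2, with a difference of 0.64, the catalase gene Cat, with -0.18, and the retinoid X receptor Rxrg, with -0.18, named after their values were seen (limma adjusted p = 0.736 for each). The retinoid X receptor Rxra differed by 0.09.

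Pparg, the PPAR of lipid-storing cells, was below the brightness limit and read 6.64 in D04, 6.70 in D34, 6.83 in D48, with 6.16 for the library labelled Case D52, against 6.25 in control D02, 6.01 in D40, 6.21 in D50 and 6.21 in D58. As for Cd36, cases D04, D34 and D48 lay above every control while the fourth case lay among the controls, and the difference was 0.41 (95% interval 0.12 to 0.71, limma adjusted p = 0.618, fitted with all dim genes). The lipid droplet coat gene Plin2 read 11.62, 11.70, 11.57 and 11.31 in D04, D34, D48 and the library labelled Case D52, against 11.29, 11.16, 11.51 and 11.35 in the 4 controls. Its difference was 0.22 (limma adjusted p = 0.736). Lipofibroblast markers (5 of 5 measured, 4 in the fit) had a median of 0.14, 0.81 and 0.33 log2 in D04, D34 and D48, with -0.10 in the library labelled Case D52, against -0.12 to 0.13 in controls, and a summed intensity of 11468 to 21197 in cases and 11947 to 13042 in controls. Lpl, a marker of that list and a PPAR target named after its values were seen, read 11.12, 12.18, 11.35 and 11.09 in D04, D34, D48 and the library labelled Case D52, against 10.92, 10.67, 11.11 and 11.07 in the 4 controls. Of the other markers on that list, Tcf21 differed by 0.05, and Fgf10, below the brightness limit, by -0.15. Pdgfra differed by 0.56, and it read 12.58 in D34 against 10.32 to 11.15 in the other cases. The part of lipofibroblasts in the Cd36 values was not tested. Fat markers (8 of 10 measured) were mostly dim, with Ucp1, Adipoq and Cidea below the brightness limit, and their summed intensity was 573 to 972 in cases and 725 to 1560 in controls.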

How the data were processed

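Lung RNA of 8 pups was measured on 8 arrays. The authors deposited probe set intensities on a linear scale for 45101 probe sets, and affy, an R package, is named in the submitters' processing notes. Background correction, summary, normalization and genome build: not given in the sources used here, so their effect on these values is unknown. The deposited tables agreed in every intensity (largest difference 0). The authors' deposited column of log2 ratios equalled D04 over D02 and was not used further. Groups came from the sample titles.

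The log2 of each deposited intensity was used unscaled, and 64 control probe sets were left out. Probe sets were named from the platform annotation (34945 with 1 symbol, 932 with several, 9160 with none), and 34741 were found by gene identifier in the RefSeq table of GRCm38.p6. Those below the 40th percentile of mean log2 intensity (6.51) were left out, and the brightest probe set stood for a gene. The 2 groups were tested in limma 3.58.1 (lmFit, eBayes; R 4.3.3), two-sided, with Benjamini-Hochberg adjustment over 12856 genes and no litter block. The fit was checked on data made with known changes. Probe sets above the limit disagreed in sign for 5 of 18 members (Acsl4, Hadh, Hadhb, Hsd17b4 and Ucp3).

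The members, the role, pathway and marker lists and the genes named were chosen with earlier results of these data known. Pup values were printed for 14 fixed members, of which Cpt1b was not measured, for the 12 with the smallest p, and for Acoxl and Ehhadh, added after their values were seen. Alternatives changed the filter, scaling, probe set choice, moderation, weights, sex covariate and threshold, and left out each pup.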

Additional observations from a re-analysis of the deposited data

Results flagged for a closer look

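Each of the 41 measured members was looked at in both groups of 4 pups for a single pup far from the other 3, measured as its gap to the nearest divided by the range. Chance gives about 1 such pup in 20 groups, and 82 groups gave 4. Acot1 in cases had D34 apart (10.995 against 10.09 to 10.23 in the other 3 cases, gap 0.847 of the range). Acot1 in controls had D50 apart (10.29 against 10.12 to 10.14, gap 0.906 of the range). Cd36 in controls had D58 apart (11.50 against 11.56 to 11.57, gap 0.87 of the range), within a range of 0.07 log2. Fabp3 in controls had D58 apart (10.52 against 9.998 to 10.08, gap 0.837 of the range), the control that also had the highest summed intensity of heart and skeletal muscle markers (28234).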

How the results depend on the processing

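No paired analysis was possible because no label ties a pup to a litter. No member passed at an adjusted p of 0.05 under any filter, scaling, probe set choice, moderation, sex covariate or left-out pup. None of the other pathway genes did either. With array weights, which gave D04 a weight of 4.86 and D34 one of 0.261, 2 members passed, Eci1 (limma adjusted p = 0.0308) and Vnn1 (limma adjusted p = 0.00131). The share of all genes that passed with array weights was not counted, so these 2 cannot be set against it. In the main fit no member or other pathway gene passed at an adjusted p of 0.1. Without the library labelled Case D52, Vnn1 (limma adjusted p = 0.0676) and Eci1 (limma adjusted p = 0.0776) lay under 0.1. The share of all genes under 0.1 in that fit was not counted either. At an unadjusted p under 0.05 there were 5 members and 9 other pathway genes, against 6.29% of all genes. Members without overlap numbered 3 to 7 on leaving out 1 pup, and the 7 came without the library labelled Case D52, where 13.7% of all genes also showed none. Over all alternatives the limma adjusted p ran from 0.00131 to 0.849 for Vnn1, 0.0308 to 0.999 for Eci1 and 0.066 to 0.999 for Cd36. Of 656 member values under alternatives, 63 had the other sign, in 26 members whose main difference was at most 0.22. The other 13 kept their sign throughout, Eci1, Vnn1, Fabp5, Cd36, Acadm and Fabp3 among them.

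The values of opposite sign were as follows, and their cause was not tested. With arrays set to one median they were 0.030 for Etfa, 0.029 for Etfdh, 0.0090 for Cpt1a, 0.0036 for Acox3, 0.012 for Hsd17b4, 0.0004 for Acsl3, 0.0090 for Acsl4, 0.014 for Ppara and 0.043 for Angptl4. With quantile normalization they were -0.0045 for Cpt2, 0.015 for Acox3 and 0.022 for Ppara. With the mean of all probe sets they were 0.0215 for Hadhb, -0.0062 for Hadh, 0.022 for Hsd17b4, 0.086 for Acsl4 and -0.065 for Ucp3. With array weights they were -0.077 for Acaa2, -0.054 for Decr1, -0.0285 for Cpt2, -0.068 for Acaa1a, -0.074 for Decr2, -0.017 for Acsl5 and -0.050 for Acot2. With sex as a covariate they were 0.0021 for Etfa and 0.0077 for Angptl4. In males alone they were -0.028 for Eci2, 0.058 for Etfa, -0.071 for Pex11a, -0.023 for Acot1 and -0.033 for Ucp3. Leaving out 1 pup gave ranges of -0.0025 to 0.082 for Acads, -0.022 to 0.086 for Acaa2, -0.0054 to 0.076 for Decr1, -0.068 to 0.025 for Etfa, -0.044 to 0.025 for Etfdh, -0.096 to 0.032 for Cpt1a, -0.021 to 0.039 for Cpt2, -0.11 to 0.0069 for Acox3, -0.47 to 0.11 for Acoxl and -0.023 to 0.094 for Acaa1a. They were -0.075 to 0.064 for Decr2, -0.0093 to 0.085 for Pex11a, -0.12 to 0.028 for Acsl4, -0.035 to 0.047 for Acsl5, -0.015 to 0.12 for Acot2, -0.083 to 0.021 for Ppara, -0.15 to 0.017 for Ppard, -0.21 to 0.046 for Pdk4 and -0.069 to 0.057 for Angptl4. Genes near the brightness limit, such as Ppara, are measured less surely than bright ones.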
